A study of Mus musculus with 4 samples.

Results

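The proteasome subunits and regulators were taken as every gene whose name on the array is Pomp or has the form of the Psma, Psmb, Psmc, Psmd, Psme, Psmf and Psmg families, which gave 49 genes with 94 probes among 36693 named features with 56605 probes. The study asked how the Nr4a nuclear receptors shape the early phase of induced Treg (iTreg) differentiation. The RNA described here was read on 4 single-colour Agilent mouse arrays placed on 1 slide. The study also read iTreg cells on arrays at a later time, and those arrays were not used here. Naive T cells and iTreg cells at 3 h were each read on 1 array per genotype, WT and Nr4a-TKO, so no condition had a replicate and no difference could be tested. Naive cells were CD4+ cells with high CD62L, low CD44 and no Foxp3, and the iTreg cells were the same cells after 3 h on plate-bound anti-CD3 (2 µg/ml) and anti-CD28 (0.5 µg/ml) with anti-IFN-γ, anti-IL-4, IL-2 (10 ng/ml) and TGF-β1, for which the labels give 2 doses (0.2 and 0.5 ng/ml) without saying which was used.

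All cells were C57BL/6J and were sorted 6 weeks after marrow had been transferred into irradiated Rag2-/- recipients, from a colony whose mice were 6 to 8 weeks old. Nr4a-TKO joins floxed Nr4a1 and floxed Nr4a2 with Nr4a3-/-, and which Cre deleted the floxed genes is not given in the sources used here. Nr4a-TKO cells were the Ly5.2+ cells of recipients that had also received WT Ly5.1 marrow, whereas WT cells came from recipients of WT marrow alone, so genotype and the kind of chimera cannot be told apart. How many animals were pooled per array is not given in the sources used here. Below, a level is the log2 signal of a probe relative to the 75th percentile of its array, where 0 is that percentile, and the 4 levels of a gene are listed in the order WT naive, Nr4a-TKO naive, WT 3 h and Nr4a-TKO 3 h. A difference is on the log2 scale too. Repeated spots of probes well above background gave an SD of 0.12 for a difference between 2 arrays. This SD covers the array alone and not the variation between mice or cultures.

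The targeted genes were read first. The Nr4a1 probe had levels of 0.59, 1.88, 5.03 and 5.53, and the brighter of the Nr4a2 probes had levels of -0.22, -0.02, 2.53 and 3.94, so at both stages each was higher where the label reads Nr4a-TKO than where it reads WT. Of the 3 Nr4a3 probes, those for NM_001307989 and NM_015743 differed by -1.55 and -1.97 at 3 h, labelled Nr4a-TKO minus labelled WT, and the brightest by 0.22. Which exons are deleted is not given in the sources used here, and a probe outside the deleted part checks nothing. Genotypes are therefore given as labelled, and each direction between them rests on the labels. Markers of CD4 T cells were well above background on all arrays for 5 of 5 genes, with summed log2 levels between 6.76 and 7.53. The 4 B cell markers were also detected on all arrays, with summed levels of 2.65, 2.82, 1.80 and 2.36, as were 2 of 4 myeloid markers (summed levels of the 4 between 8.61 and 8.94, mostly the Itgam probe), both CD8 T cell markers, 2 of 3 erythroid markers (all but Hbb-b1, which cleared background on no array) and 2 of 3 markers of thymic epithelium. The 2 Itgam probes disagreed, although both were well above background on all arrays. The brightest, which the sum uses, had levels of 8.51 or higher, and the one for NM_008401 had levels of -0.13 or lower. The myeloid sum thus rests mostly on 1 probe and is not a measure of myeloid cells. What these marker probes read in sorted CD4 T cells was not tested.

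The proteasome degrades proteins that carry ubiquitin. Its 20S core is a barrel of alpha rings around beta rings, and the beta rings hold the catalytic sites. The 19S particle binds, unfolds and feeds the substrate, using a ring of ATPases and a lid that removes ubiquitin. In lymphocytes and after interferon, the inducible subunits Psmb8, Psmb9 and Psmb10 take the places of Psmb5, Psmb6 and Psmb7 in newly built cores to form the immunoproteasome, which trims peptides for MHC class I. Other members open the core (Psme1 to Psme4), restrain it (Psmf1) or assemble it (Pomp and Psmg1 to Psmg4).

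Of the 49 genes, 47 were well above background on all 4 arrays, Psma8 on 3 and Psmb11 on none. Psma8 is an alpha subunit of the testis, and Psmb11 is a beta subunit of the thymic cortex. No spot was saturated, and the raw processed intensities of the 94 probes spanned 1.33 to 25727. The 2 probes of Psme2b also carry accessions of Psme2, which has no row under its own name, so the pair could not be told apart. Of 27 genes with more than 1 probe well above background on all arrays, 19 had probes that all changed in 1 direction in both cultures, and 8 did not. Those 8 are Psmb2, Psmc4, Psmd1, Psmd4, Psme2b, Psme3, Psme4 and Psmf1, and the probe values are given for those that the results turn on. Each gene took its brightest probe, and levels of different genes, which come from different probes, are not compared.

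After 3 h of culture the proteasome genes moved in opposite directions by kind. All 31 constitutive core and 19S subunits other than Psma8 were higher than in naive cells in both genotypes, with a median difference of 1.02 (2.02-fold) on the arrays labelled WT and 1.04 (2.06-fold) on those labelled Nr4a-TKO. The 3 catalytic subunits of the immunoproteasome were all lower, by 2.71-fold to 6.47-fold on the arrays labelled WT. The assembly factors of the core were higher, and the activators, the inhibitor and the 19S chaperones differed less. Over the 48 measured genes the median was 0.93 in WT and 0.97 in Nr4a-TKO, against -0.10 and -0.05 over 26307 and 26652 features. More than 2-fold higher were 19 of 48 genes in WT and 21 of 48 in Nr4a-TKO, where 10.0% and 9.38% of all features were. More than 2-fold lower were 3 genes in each genotype, Psmb8, Psmb9 and Psmb10, where 11.1% and 10.0% of all features were. At 1.5-fold, 37 genes were higher and 3 lower in WT, beside 18.7% and 21.7% of all features, and 34 were higher and 3 lower in Nr4a-TKO, beside 18.0% and 20.4%. The naive and cultured cells differ also in stimulation, handling and culture, which cannot be told apart, and in bulk RNA a change in the share of cells cannot be told from a change per cell.

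**Figure D1:**
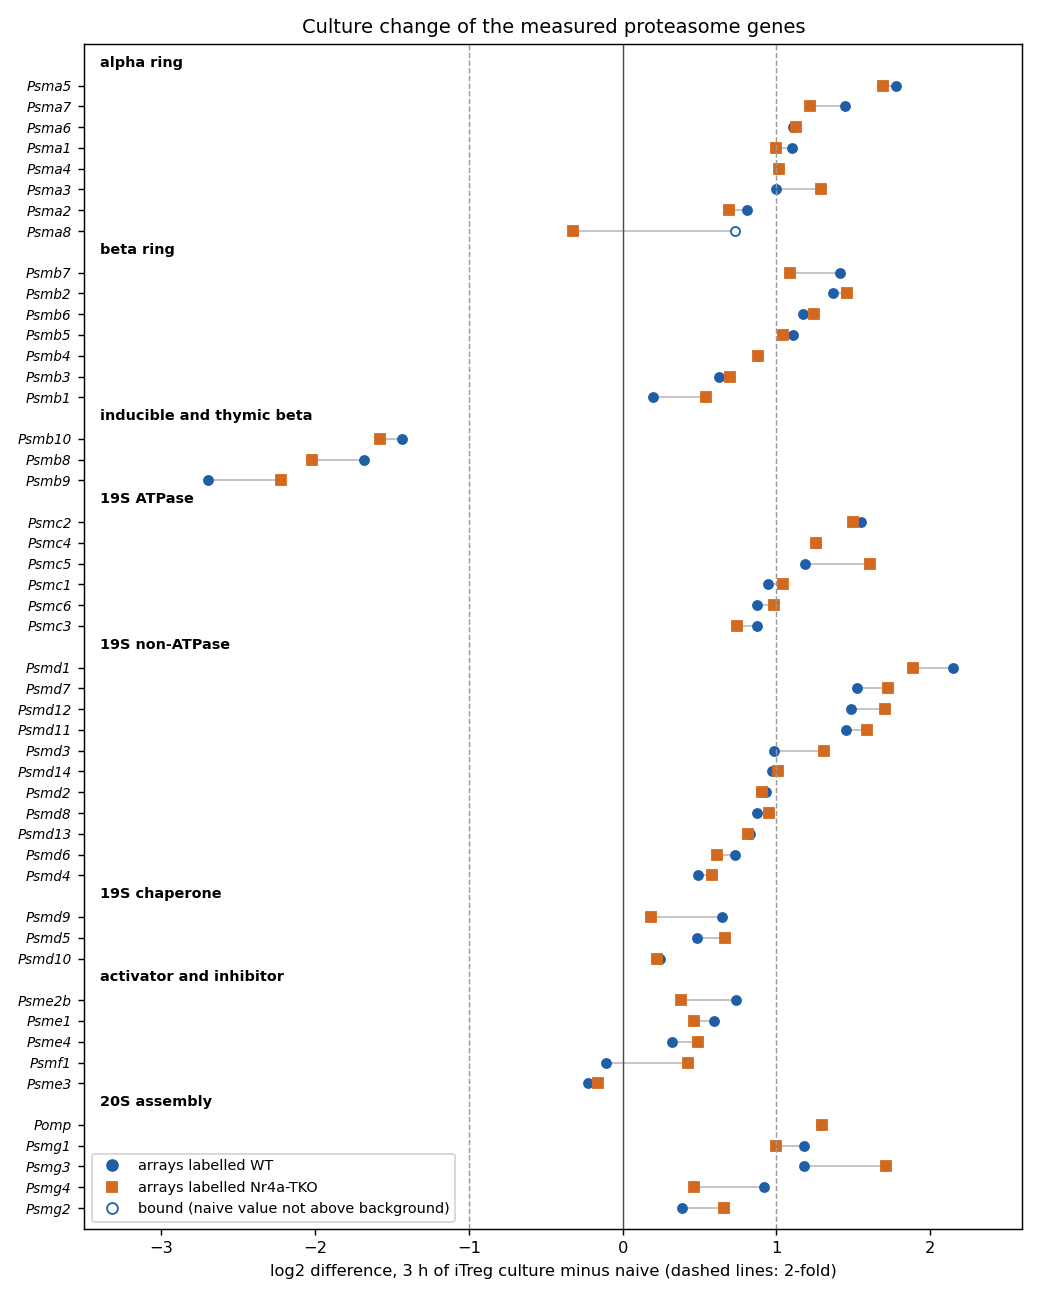
Log2 difference between 3 h of iTreg culture and naive cells (horizontal axis) for the 48 measured proteasome genes, grouped by role, with circles for the arrays labelled WT and squares for those labelled Nr4a-TKO, 1 array per condition. Most genes lie near the dashed 2-fold line on the right, while Psmb8, Psmb9 and Psmb10 lie beyond the one on the left, and the open circle of Psma8 is a bound.

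**Figure D2:**
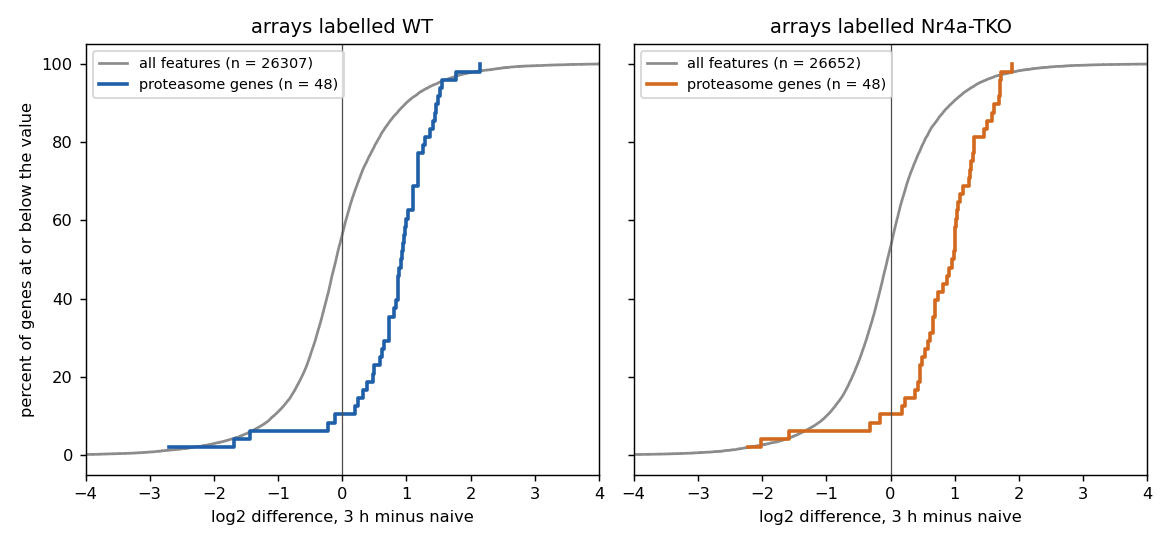
Percent of genes (vertical axis) whose log2 difference between 3 h and naive cells is at or below the value on the horizontal axis, for all features in grey and the 48 measured proteasome genes in colour, WT on the left and Nr4a-TKO on the right. The proteasome curve runs to the right of the grey curve over most of its course and meets it at both ends, with Psmb8, Psmb9 and Psmb10 at the lower end and Psmd1 at the upper.

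The constitutive catalytic subunits were all more than 2-fold higher after culture. With quantile normalization, alone or in the steps of RMA, Psmb5 in both genotypes, Psmb6 in WT and Psmb7 in Nr4a-TKO were under 2-fold, as was Psmb5 in Nr4a-TKO with a normexp offset of 50. Over the 8 alternatives the differences of these genes lay between 0.85 and 1.58. Psmb5, which carries the chymotrypsin-like site, had levels of 1.74, 1.69, 2.85 and 2.73, a rise in value of 2.15-fold in WT and 2.06-fold in Nr4a-TKO. Psmb6, with the caspase-like site, had levels of 2.19, 2.17, 3.36 and 3.42, or 2.26-fold and 2.37-fold. Psmb7, with the trypsin-like site, had levels of 2.65, 2.89, 4.06 and 3.98, or 2.66-fold and 2.12-fold. For each of these genes both cultured arrays were above both naive arrays, and the gap between the cultured arrays of the 2 genotypes was at most 0.11 in size.

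Their inducible counterparts went the other way. Psmb8, which replaces Psmb5, had levels of 4.04, 4.14, 2.36 and 2.12, which is 3.20-fold lower after culture in WT and 4.05-fold lower in Nr4a-TKO. Psmb9, which replaces Psmb6, had levels of 4.61, 4.57, 1.92 and 2.35, or 6.47-fold and 4.66-fold lower. Psmb10, which replaces Psmb7, had levels of 2.57, 2.67, 1.14 and 1.09, or 2.71-fold and 2.99-fold lower. Both cultured arrays were below both naive arrays for all 3 genes. A second, dim Psmb9 probe, for ENSMUST00000114230, was well above background on the naive arrays and not after culture. Under each of the 8 other ways of computing the values, all 3 genes stayed lower after culture, with differences between -1.18 and -2.96 in WT and between -1.31 and -2.43 in Nr4a-TKO. Not all of these ways could give another value. The deposited table equals the main values apart from rounding. Psmb8 and Psmb10 have 1 probe each, so a change in the choice or filter of probes left them as they were.

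**Figure D3:**
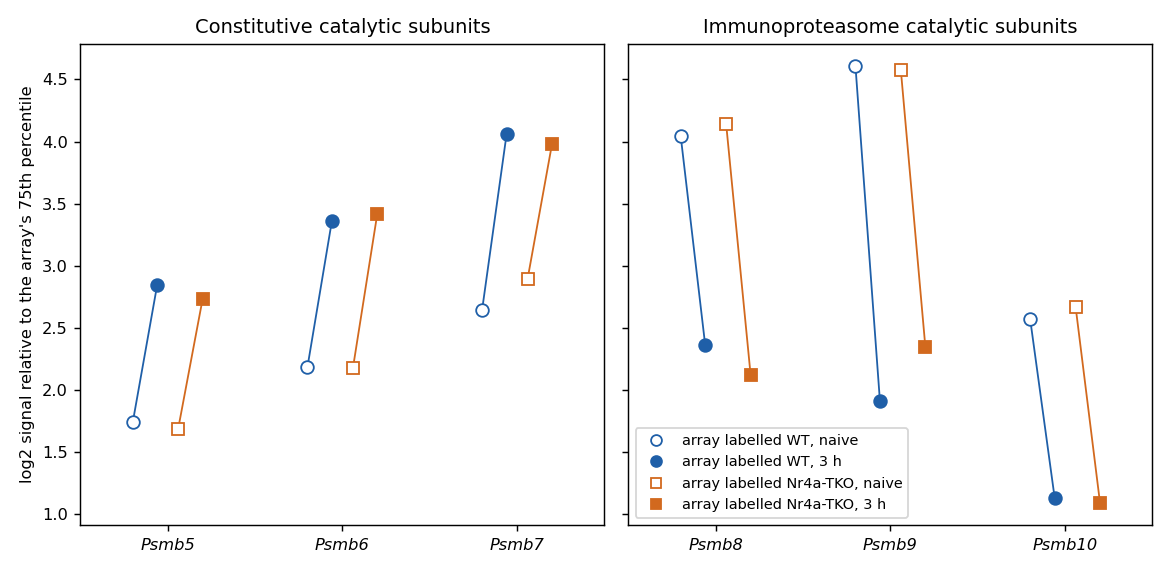
Level of the 3 constitutive catalytic subunits (left) and the 3 inducible ones (right) on the 4 arrays, as log2 signal relative to the 75th percentile of the array. Open symbols are naive cells and filled symbols cells after 3 h of culture, 1 array each, so there are no error bars. Psmb5, Psmb6 and Psmb7 go up and Psmb8, Psmb9 and Psmb10 go down in both genotypes, and heights of different genes are not comparable because each has its own probe.

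Genes that share the interferon response or the peptide loading of MHC class I with the inducible subunits were listed beside them. Of 14 such genes, 10 were more than 1.5-fold lower after culture in WT and 11 in Nr4a-TKO, beside 21.7% and 20.4% of all features, and 2 and 1 were higher, beside 18.7% and 18.0%. The list had a median difference of -1.49 in WT and -1.22 in Nr4a-TKO. Tap1 and Tap2, which together pump peptides into the endoplasmic reticulum, were lower by 3.66-fold and 2.14-fold in WT and by 2.83-fold and 2.24-fold in Nr4a-TKO. Tapbp, which docks MHC class I to that pump, was lower by 1.80-fold and 2.06-fold. Irf1, a transcription factor of the interferon response, was lower by 4.54-fold in WT and by 2.88-fold in Nr4a-TKO. Gbp2 and Gbp4, interferon-induced GTPases, were lower by 3.90-fold and 7.38-fold in WT and by 2.43-fold and 3.50-fold in Nr4a-TKO. Isg15, a ubiquitin-like modifier, was lower by 1.56-fold and 1.76-fold. Ifit1 and Ifit3 were not well above background after culture, and were at least 5.98-fold and 23.7-fold lower in WT and at least 6.78-fold and 23.5-fold lower in Nr4a-TKO. Nlrc5, an activator of MHC class I genes, was 1.18-fold lower in WT and 1.56-fold lower in Nr4a-TKO.

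The exceptions on that list were B2m, the light chain of MHC class I, with differences of 0.14 and 0.12, and Erap1, a peptidase of the endoplasmic reticulum, which was higher by 1.57-fold and 1.78-fold. Mx1, an interferon-induced GTPase near background, was 1.65-fold higher in WT and differed by -0.44 in Nr4a-TKO. Anti-IFN-γ was in the culture medium and not in the naive samples, and its part in these values was not tested.

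Psmb9 and Tap1, both lower after culture, are transcribed away from each other from 1 short stretch of chromosome 17. It is shown because it is the upstream sequence of both genes, between their start sites (GRCm38.p6 chr17:34187331-34187555, + strand, the strand of Tap1, from RefSeq promoters), with CCAAT in capitals.
Psmb9-Tap1: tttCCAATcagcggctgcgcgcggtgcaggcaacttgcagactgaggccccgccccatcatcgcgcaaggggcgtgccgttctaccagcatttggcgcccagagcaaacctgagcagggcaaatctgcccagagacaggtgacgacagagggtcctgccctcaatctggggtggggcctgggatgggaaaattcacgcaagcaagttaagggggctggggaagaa
In this stretch of 225 bases CCAAT occurred 1 time, on the printed strand, which is opposite to that of Psmb9. It lies at -8 to -4 relative to the Psmb9 start. In the same stretch GAAANNGAA, TTCNNNGAA, CCGGAAG, TGACNNNGC, GCGCATGCG and AAAGGTCA did not occur on either strand.

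Promoters of 41 of the 49 genes were in the RefSeq table, as 250 bases before and 50 after the start. They were set beside all 27025 genes of that table, which were not matched to the members in expression or base content. The letters CCGGAAG, part of an Ets site, were in 15 of 41 (36.6%), against 9.93% of the 27025 genes. These were Psma6, Psmc1, Psmc2, Psmc6, Psmd2, Psmd4, Psmd6, Psmd11, Psmd12, Psmd13, Psme3, Psme4, Psmg1, Psmg3 and Pomp. In percentage points, the other letters searched, also on both strands, were nearer to the share among all genes. TGACNNNGC, as in antioxidant response elements, was in 6 of 41 (14.6%) against 14.0%, and CCAAT in 14 (34.1%) against 41.1%. GCGCATGCG, bound by NRF1, was in 2 (4.88%) against 1.95%, and GAAANNGAA, as in interferon response elements, in 8 (19.5%) against 9.76%. These 8 were Pomp, Psmb3, Psmb4, Psmc2, Psmd4, Psmd9, Psme1 and Psmg4. TTCNNNGAA, the form of STAT sites, was added after the promoters were seen. It was in 3 (7.32%) against 9.55%, namely Psmb8, Psmd2 and Psmg1. Psmb8 held it at -97 to -89 relative to its start and held none of the others. After culture Psmb8 was lower, whereas Psmd2 and Psmg1 were higher, by 1.91-fold and 2.27-fold in WT. AAAGGTCA, which Nr4a proteins bind as monomers, was in 0 of 41, against 1.70% of all genes. In member promoters no match of one of these motifs overlapped a match of another, and a promoter with several matches of 1 motif was counted once. A match is a run of letters and not a measured site, and no binding was measured here.

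The following 6 windows are shown as examples of promoters of genes that were higher after culture. All were taken from members that hold the marked letters, and most members do not (CCGGAAG in 15 of 41, TGACNNNGC in 6 of 41). Each window is the 80 bases before the start site on the strand of the gene (RefSeq, GRCm38.p6). Capitals mark TGACNNNGC in Psmb5 and Psmb6, and CCGGAAG or its reverse complement in the others. Their positions are chr14:54617996-54618075 for Psmb5 (- strand) and, on the + strand, chr11:70525277-70525356 for Psmb6, chr12:100110122-100110201 for Psmc1, chr11:80428535-80428614 for Psmd11, chr11:107479448-107479527 for Psmd12 and chr5:147860548-147860627 for Pomp.
Psmb5: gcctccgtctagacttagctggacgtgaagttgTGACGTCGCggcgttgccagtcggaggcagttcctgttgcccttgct
Psmb6: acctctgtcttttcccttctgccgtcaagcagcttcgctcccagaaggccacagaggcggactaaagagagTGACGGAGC
Psmc1: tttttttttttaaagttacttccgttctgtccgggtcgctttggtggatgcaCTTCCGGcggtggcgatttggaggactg
Psmd11: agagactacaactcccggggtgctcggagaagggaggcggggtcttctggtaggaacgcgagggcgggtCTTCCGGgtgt
Psmd12: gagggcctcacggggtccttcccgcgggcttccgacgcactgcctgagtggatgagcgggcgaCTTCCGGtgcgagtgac
Pomp: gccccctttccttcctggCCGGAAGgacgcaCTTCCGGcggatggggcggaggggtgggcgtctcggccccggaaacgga
Pomp held CCGGAAG 2 times in its window, once on each strand, and the other 3 genes with it held it 1 time each.

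Among the alpha subunits, which gate the core, 7 of 8 were higher by more than 1.5-fold in both genotypes. Psma5 had the largest difference, with levels of 2.47, 2.39, 4.25 and 4.08, or 3.43-fold in WT and 3.23-fold in Nr4a-TKO. Psma2 had the smallest among the 7, with levels of 3.60, 3.65, 4.41 and 4.34, or 1.75-fold and 1.62-fold. The difference of the other 5, Psma1, Psma3, Psma4, Psma6 and Psma7, lay between 1.00 and 1.44 in both genotypes. In the constitutive beta ring, Psmb2 had levels of 3.17, 3.13, 4.54 and 4.59, or 2.58-fold and 2.75-fold. One of its other probes was 2.73-fold and 2.83-fold higher, and the one for AK164463 had differences of -0.17 and 0.16. Psmb1 was the lowest of the beta ring, with levels of 1.21, 1.06, 1.40 and 1.61 and differences of 0.20 and 0.54. Psmb3 and Psmb4 were between, at 0.63 and 0.88 in WT.

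All 6 ATPases of the 19S base, which unfold the substrate, were higher by more than 1.5-fold in both genotypes. Psmc2 had levels of 2.47, 2.53, 4.02 and 4.03, or 2.93-fold in WT and 2.82-fold in Nr4a-TKO. Psmc3, the smallest difference of the 6, had levels of 3.83, 3.86, 4.70 and 4.61, or 1.83-fold and 1.67-fold. Psmc5 was 2.27-fold higher in WT and 3.04-fold higher in Nr4a-TKO, and its levels after culture, 4.13 and 4.24, were closer together than those of naive cells, 2.94 and 2.63. A second Psmc4 probe, with levels between -1.49 and -0.34, had differences of 1.15 and -0.12, where the first had 1.25 and 1.26, and their mean was 0.57 in Nr4a-TKO.

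Of the 11 other 19S subunits, 10 were higher by more than 1.5-fold in both genotypes. Psmd1, a scaffold of the base that holds ubiquitin receptors, had levels of 2.12, 2.53, 4.27 and 4.42, or 4.44-fold in WT and 3.71-fold in Nr4a-TKO, the largest increase in value of any member at its brightest probe. Both other RefSeq probes of Psmd1 had differences between 1.71 and 1.95, while the probe for ENSMUST00000189234 had -0.01 and 0.21, and the mean of the 4 probes had a difference of 1.40 in WT. Next came lid subunits: Psmd7 at 2.88-fold and 3.31-fold, Psmd12 at 2.80-fold and 3.27-fold and Psmd11 at 2.74-fold and 3.00-fold. Psmd14, the lid's deubiquitinase, was higher by 1.96-fold and 2.01-fold. Psmd4, a ubiquitin receptor, had the smallest difference, with levels of 4.85, 4.79, 5.33 and 5.37, or differences of 0.49 and 0.58, and its probe for ENSMUST00000147960 had differences of -0.49 and -0.15.

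The chaperones that build the 19S base are separate from the finished particle. More than 1.5-fold higher was 1 of 3 in each genotype, beside 18.7% and 18.0% of all features. Psmd9 did so in WT, with levels of -1.05, -0.71, -0.40 and -0.53 and differences of 0.65 and 0.18, the first of which was 0.28 with a normexp offset of 50. Psmd5 did so in Nr4a-TKO, with differences of 0.48 and 0.66. Psmd10, also known as gankyrin, had levels of 1.03, 1.01, 1.28 and 1.24 and differences of 0.24 and 0.23.

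Factors that assemble the 20S core were higher in both genotypes for all 5 genes. Pomp, which helps the beta rings to mature, had levels of 3.71, 3.80, 5.01 and 5.09, or 2.45-fold in both. Psmg1, which pairs with Psmg2 on the alpha ring, had levels of 0.66, 0.62, 1.85 and 1.62, or 2.27-fold and 2.00-fold. Psmg2 itself had levels of 1.31, 1.23, 1.70 and 1.89, with differences of 0.39 and 0.66 for the brightest probe and between 0.81 and 1.45 for the other 2 probes. Psmg3 had levels of -1.85, -2.45, -0.68 and -0.74, or 2.26-fold and 3.28-fold, but its differences were 0.39 and 0.52 with a normexp offset of 50, under 1.5-fold. Its partner Psmg4 had levels of 0.56, 0.65, 1.48 and 1.11, or 1.89-fold and 1.38-fold.

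The activators that cap the core and the inhibitor Psmf1 were read at their brightest probes. Their differences lay between -0.22 and 0.73 in WT and between -0.16 and 0.49 in Nr4a-TKO. More than 1.5-fold higher were 2 of 5 in WT and 0 of 5 in Nr4a-TKO, beside 18.7% and 18.0% of all features. Psme1, an interferon-inducible subunit of the 11S cap, had levels of 6.57, 6.39, 7.16 and 6.85, or differences of 0.59 and 0.46. Psme2b, read together with the other 11S subunit Psme2, had levels of 4.56, 4.44, 5.29 and 4.82, or differences of 0.73 and 0.38, and 0.61 and -0.10 at its second probe. Unlike the inducible beta subunits, neither was lower after culture at its brightest probe. Psme4, the PA200 cap, had levels of 2.36, 2.26, 2.68 and 2.74, or differences of 0.32 and 0.49.

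Psme3, the nuclear 11S cap, depended on the probe. Its brightest probe had levels of 8.26, 8.30, 8.03 and 8.14, or differences of -0.22 and -0.16. Its other probe, for ENSMUST00000142640, had levels of 1.70, 1.96, 4.10 and 3.87, or differences of 2.41 and 1.91. Averaging both probes gave 1.09 and 0.87, so no direction is given for this gene. Psmf1 had levels of -0.85, -0.93, -0.95 and -0.51, with differences of -0.11 and 0.42, and its other 2 probes had differences between 0.09 and 0.69.

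Genes that work with the proteasome but lie outside the families were taken as a list of 28, of which 25 had a value. More than 1.5-fold higher after culture were 14 of 25 in WT and 13 of 25 in Nr4a-TKO, beside 18.7% and 18.0% of all features, and 2 and 1 were lower, beside 21.7% and 20.4%, with medians of 0.72 and 0.76. Partners of the 19S particle were among the higher ones: the ubiquitin receptor Adrm1 at 2.43-fold and 2.22-fold, the deubiquitinases Usp14 at 2.13-fold and 3.21-fold and Uchl5 at 1.87-fold and 2.49-fold, the thioredoxin Txnl1 at 2.63-fold and 2.64-fold, and the small subunit Shfm1 (now Sem1) at 1.53-fold and 1.41-fold. Shuttles that carry ubiquitinated proteins were higher for Ubqln4 (2.79-fold and 3.40-fold) and Rad23b (2.56-fold and 2.84-fold). So were the segregase Vcp (2.31-fold and 2.65-fold), its cofactor Ufd1l (1.91-fold and 1.90-fold) and the ubiquitin-activating enzyme Uba1 (2.01-fold and 1.98-fold). Of the genes that encode ubiquitin itself, Ubb had differences of 0.07 and -0.06 and Rps27a of 0.13 and 0.26.

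The transcription factor that raises proteasome genes when proteasome activity falls is encoded by Nfe2l1, which was higher by 2.03-fold in WT and 2.20-fold in Nr4a-TKO. Ddi2, the protease that cleaves it, was higher by 1.65-fold and 1.73-fold. Ngly1, the glycanase that also acts on it, was lower by 4.32-fold and 2.92-fold. Nfe2l2, the related factor of the oxidative stress response, was lower by 1.67-fold in WT and 1.33-fold in Nr4a-TKO. Zfand5, which binds and stimulates the proteasome, was higher by 1.83-fold and 2.40-fold.

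The TRiC/CCT chaperonin, another large complex of the cytosol that folds actin and tubulin, was set beside the proteasome. All 8 of its subunits were more than 2-fold higher after culture in both genotypes, with differences between 1.07 and 1.93 in WT and between 1.29 and 1.99 in Nr4a-TKO. The 17 constitutive 19S subunits ranged from 0.49 to 2.15 in WT and from 0.58 to 1.89 in Nr4a-TKO. A higher level after culture was thus measured in both complexes, and with 1 array per condition the difference between them could not be tested.

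Between the genotypes, the proteasome genes differed little at either stage, on the same 4 arrays that gave the culture differences. The median difference, labelled Nr4a-TKO minus labelled WT, was -0.03 in naive cells and 0.00 after culture, against -0.01 and 0.02 over 26247 and 26658 features. No member passed 2-fold in either direction at either stage, where 2.74% of all features were higher and 2.53% lower in naive cells, and 2.76% were higher and 2.58% lower after culture. At 1.5-fold, 0 genes were higher and 1 lower in naive cells, beside 7.11% and 7.22% of all features, and 0 were higher and 1 lower after culture, beside 8.13% and 6.82%. Within 2 SDs of the repeated spots (0.25) lay 42 of 48 members in naive cells and 41 of 48 after culture, against 58.7% and 57.3% of all features, which include many dimmer probes.

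The gene past 1.5-fold in naive cells was Psmg3, lower by -0.60, with -0.40 at its other probe. Psmc5 (-0.31) and Psmd3 (-0.29) came next, where the other Psmd3 probes had 0.02 and 0.11. The highest differences among genes well above background on both arrays were those of Psmd1 (0.40), Psmd9 (0.33) and Psmb7 (0.25). The other Psmd1 probes had differences between -0.10 and -0.05, so its value was that of the brightest probe alone. Psma8, dim in WT, differed by at least 0.32. At 3 h the highest were Psmf1 (0.45), Psmb9 (0.44) and Psmd5 (0.25), where the other Psmf1 probes had -0.12 and 0.07. The gene past 1.5-fold at 3 h was Psma8, at -0.73, and next came Psme2b (-0.47) and Psmg4 (-0.37), followed by Psme1 (-0.31). Both Psme2b probes had the same direction at 3 h, the second with -0.63. The B cell marker Cd79a differed by 0.69 in naive cells and by 1.22 after culture, and Cd79b by -0.56 and 0.98, and their part in these differences was not tested. Outside the families, Txnl1 was lower on the arrays labelled Nr4a-TKO by -1.06 in naive cells and -1.05 after culture, the only gene of the 25 past 1.5-fold between the genotypes. From the interferon list, Mx1 was higher by 0.99 in naive cells, and Gbp4 by 0.68 and Gbp2 by 0.59 after culture.

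**Figure D4:**
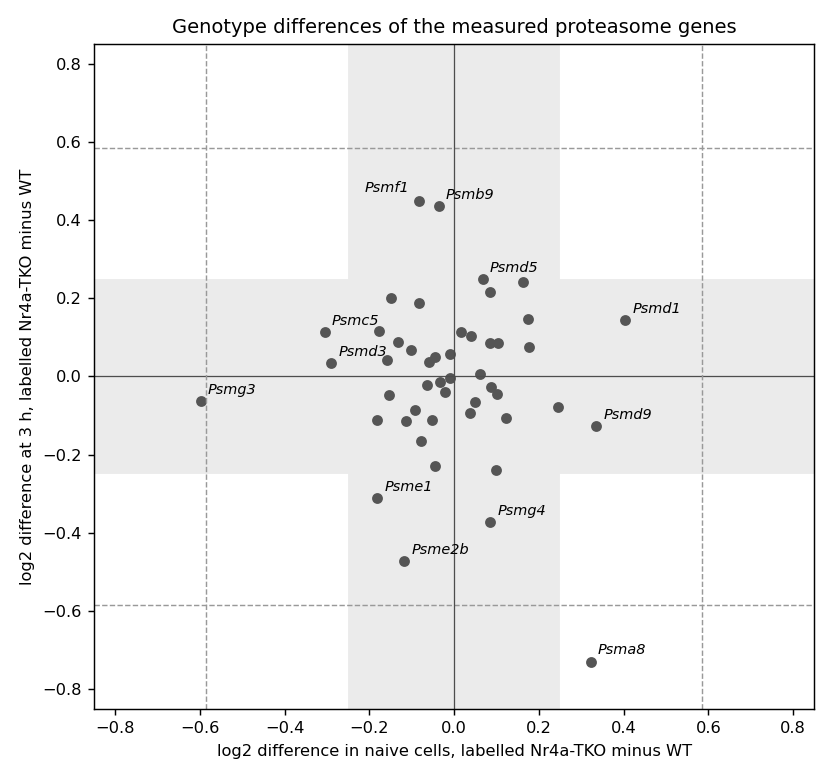
Log2 difference between the arrays labelled Nr4a-TKO and WT in naive cells (horizontal axis) and after 3 h of culture (vertical axis) for the 48 measured proteasome genes, 1 point per gene. Grey bands mark 2 SDs of repeated spots (0.25) and dashed lines 1.5-fold. Most points lie where the bands cross, and Psmg3 in naive cells and Psma8 after culture lie past a dashed line.

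The culture change of a gene in Nr4a-TKO and in WT was also set side by side. It had 1 sign in both genotypes for 46 of 48 genes, the exceptions being Psma8 and Psmf1. The difference between the changes, Nr4a-TKO minus WT, had a median of 0.01, with a lowest value of -1.05 or below for Psma8, where the WT change is a bound, and a highest of 0.53 for Psmg3. Psmf1 had the same value as Psmg3, 0.53, and Psmb9 had 0.47, that is, a smaller fall in value on the arrays labelled Nr4a-TKO. At the other end Psmd9 had -0.46 and Psmg4 -0.46. Only Psma8 passed 1.5-fold in this measure, with levels of -3.69, -3.30, -2.89 and -3.62, on arrays where the dimmest probe that cleared background was at -3.62, -3.65, -3.83 and -3.95.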

How the data were processed

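For each array the authors deposited the output of Agilent Feature Extraction 11.5.1.1: a processed intensity per spot, background-subtracted and detrended, with flags. They also deposited a log2 value table, found to equal log2 of that intensity minus the 75th percentile of the array, although the methods name RMA. RNA was labelled with Cy3 (1 colour). From the processed intensity, log2 values minus the 75th percentile over 56466 probes without control or outlier spots were computed with Python 3.11.15, pandas 2.3.3 and numpy 2.4.6, and normexp in limma 3.58.1 (R 4.3.3). A gene took its brightest probe over the 4 arrays. A dim probe was raised to the lowest value well above background on its array, and a difference was given where at least 1 of 2 arrays was well above background. Folds of 2 and 1.5 were used, without tests, and their counting was tested on simulated data. Array spread came from 285 to 287 probes per array with 5 or more spots and well above background, pooled, as the largest of the 4 arrays. The pooled SD of 1 array was 0.07 to 0.09 for these, and 0.13 to 0.15 over all 300 probes with 5 or more spots. Members, lists and motifs were chosen with earlier results of these data known, and TTCNNNGAA was added after the promoters were seen. All members could be named, with full values for the catalytic, activator and assembly genes and the extremes of each other group, and others where past 1.5-fold. Some genes counted in the lists are not reported here by name. Motifs were searched in 32851 promoters. Protein sequences were not used here. RefSeq coordinates are on GRCm38.p6.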

Additional observations from a re-analysis of the deposited data

Results flagged for a closer look

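Psma8, the testis form of an alpha subunit, changed in opposite directions in the 2 genotypes, with a culture difference of at least 0.73 on the arrays labelled WT and of -0.32 on those labelled Nr4a-TKO. Each is larger than the SD of 0.12 from repeated spots, but that SD came from probes well above background and may be too small for a probe this dim. The difference between the genotypes was not tested, since there was 1 array per condition. In WT naive cells the probe did not clear background by the scanner's flag, and the other Psma8 probe did not clear it anywhere. With a normexp offset of 50 the difference between the genotypes at 3 h was -0.07, where it was -0.73 in the main values.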

How the results depend on the processing

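The 4 medians and 16 counts were recomputed under 8 alternatives, and the medians also as means. Of these 164 values, 145 moved by less than the array SD or, for counts, by less than 1.5 times, and 19 moved more. One alternative, the deposited table, equals the main values apart from rounding, so its agreement with them was fixed in advance. No difference past 1.5-fold changed sign. Of the genes past 1.5-fold after culture, 7 of 40 in WT (Psma8, Psmb3, Psmd6, Psmd8, Psmd9, Psme2b and Psmg3) and 9 of 37 in Nr4a-TKO (Psma2, Psmb3, Psmc3, Psmc4, Psmd5, Psmd6, Psmd8, Psmg2 and Psmg3) fell short of it under at least 1 alternative, and past 2-fold 9 of 22 and 10 of 24 did. The median culture difference in WT was 0.76 with the steps of RMA (normexp, then quantile normalization), 0.78 with quantile normalization of the processed signal, 1.096 with median scaling and 0.76 as a mean. In Nr4a-TKO it was 0.79 with a normexp offset of 50, 0.78 with the steps of RMA, 0.77 with quantile normalization and 0.77 as a mean. The number of genes more than 2-fold higher after culture in WT was 12 with the steps of RMA and 29 with median scaling. The 1 gene more than 1.5-fold lower in naive Nr4a-TKO cells became 0 with the offset of 50, with the steps of RMA and with the mean of all probes, and 2 with no filter on dim probes, where Psmb11 has a value. At 3 h the 1 lower gene became 0 with the offset of 50, with the steps of RMA and with only probes well above background on 4 arrays, which leave out Psma8. With the mean of all probes, 1 gene, Psmb9, was higher by 1.5-fold and by 2-fold (1 each) at 3 h, where its second probe is dim. The cause of the other moves was not tested. Median scaling moved the median of all features in the WT culture difference from -0.10 to 0.08, and no filter to -0.19, while the median of the members relative to it was 1.02 in the main values and between 0.81 and 1.11 under the alternatives (0.79 to 1.09 in Nr4a-TKO).

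No paired analysis was possible because each group had 1 array. Replicates could not be left out for the same reason. The number of arrays limits the precision, and the spread between mice is unknown. Psmb11 gave no difference, since it was not well above background on any array. The comparison of protein sequences was not run, since no protein table was used here.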
